A study of Mus musculus with 9 samples.

Results

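The 10 genes described here are those of endoplasmic reticulum (ER) stress and ER-associated degradation in mouse liver: Herpud1, Sel1l, Syvn1, Edem1, Hspa5, Hsp90b1, Dnajb9, Dnajc3, Sdf2l1 and Xbp1. They were taken by name, with earlier results of these data known, and all 10 were found among the 54532 genes of the deposited table. Liver RNA was sequenced in 9 libraries: 3 of wild type mice on plain drinking water, 3 of Cth knockout mice on plain drinking water, and 3 of Cth knockout mice given 1% betaine in the drinking water. The deleted gene makes cystathionine gamma-lyase, an enzyme of the transsulfuration pathway that yields cysteine. Betaine is a methyl donor for the remethylation of homocysteine. All 3 groups are livers, and the betaine group carries the knockout and the supplement together, with no wild type group on betaine. Strain, age, sex and the way the knockout was made are not given in the sources used here, nor are the replicates of a group said to be separate animals, so p-values measure only the spread between these libraries.

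Proteins that enter the ER are folded by chaperones, and those that fail are pulled back through the membrane, ubiquitinated and destroyed by the proteasome, which is ER-associated degradation (ERAD). When unfolded proteins build up, the membrane sensors Ire1, Perk and Atf6 switch on the unfolded protein response, which raises the genes of chaperones and of ERAD. Hepatocytes secrete most of the plasma proteins and depend on both.

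Levels are FPKM, fragments scaled to exon length and library depth, which are per length and can be compared between genes. Changes are log2 fold changes of FPKM + 0.5 ± SE from limma over all 9 libraries (n = 3 per group), with p-values adjusted over the 11852 genes tested and a threshold of 0.05. The reads recovered from the table numbered 15183194 to 17471396 per library, and no member had fewer than 519 reads in any library. Cth itself stood at 254 ± 33.3 FPKM (SD) in wild type, 0.544 ± 0.248 in the knockout and 0.470 ± 0.269 in the betaine group. Wild type replicate 3 stands apart: it held 26.6 FPKM of Xist against at most 0.0124 in the other 8 libraries, and 0 reads of the Y-linked genes Uty, Kdm5d, Ddx3y and Eif2s3y, which together had 1512 to 2393 elsewhere. Where leaving it out changed a call or a sign, or moved a called value by over 1.5 times, the value without it is given.

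In the knockout liver, 4 of the 10 genes fell and none rose: Herpud1 by 1.34 on the log2 scale, Dnajc3 by 0.95, Sel1l by 0.77 and Edem1 by 0.76. Across all tested genes, 12.7% were called lower and 12.8% higher in that comparison. The median change of the 10 genes was -0.59, against 0.015 over all tested genes. Without wild type replicate 3 the median was -0.53 and 5 members were called lower. Over all tested genes the median was then 0.0011, with 1184 called higher and 1383 lower. The main chaperones Hspa5 and Hsp90b1, the ligase Syvn1 and the transcription factor Xbp1 did not pass the test. FPKM did not overlap between the groups for 6 members that were lower (23.2% of tested genes) and for 1 that was higher (23.6% of tested genes). Between the betaine-supplemented and the plain knockout, 0 of the 10 genes were called. Of all 11852 tested genes, 2 were called higher and 3 lower in that comparison.

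**Figure D1:**
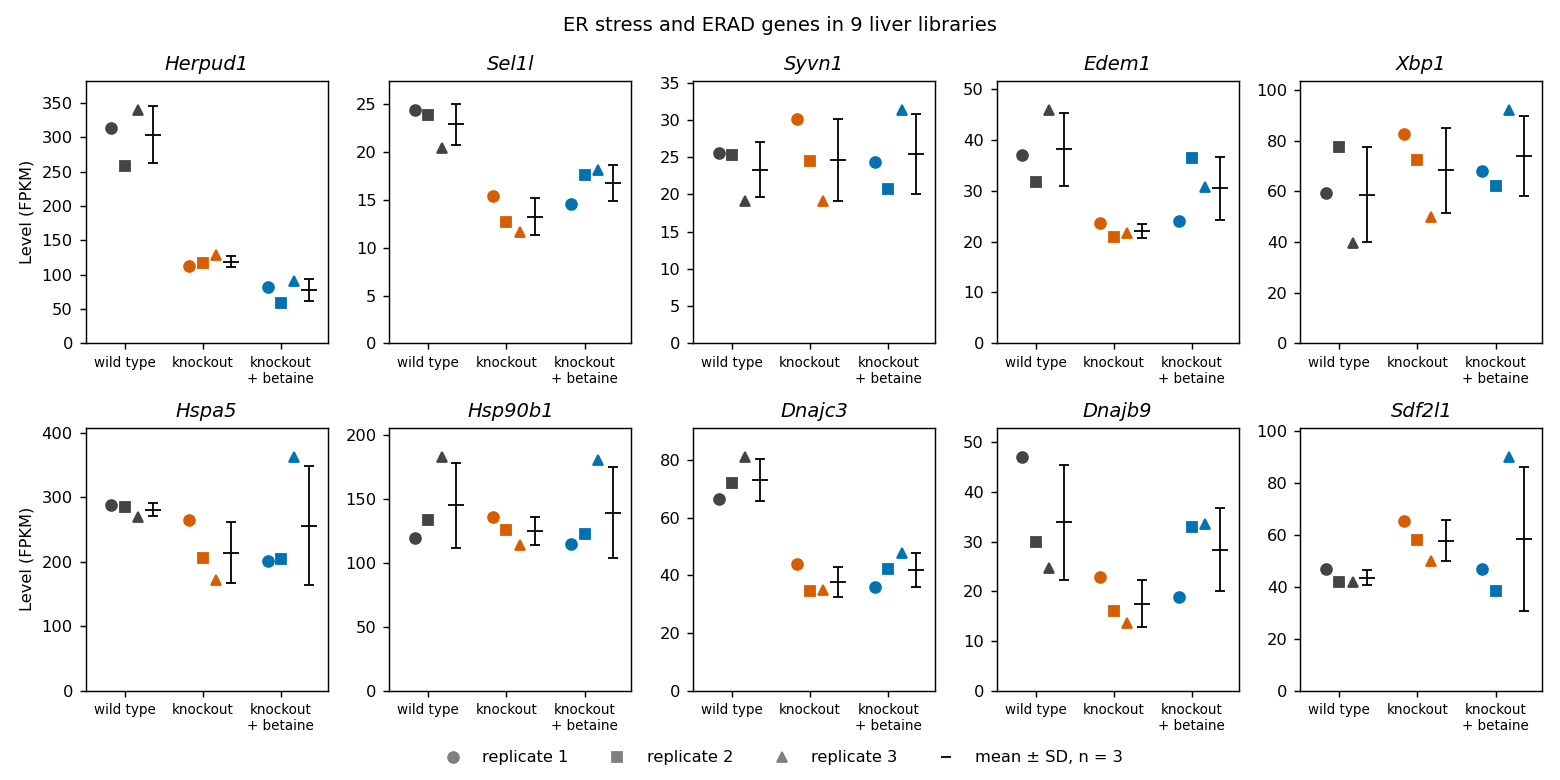
FPKM of each of the 10 genes (vertical axes from 0) in the 9 libraries; symbols mark the replicate, and black bars give the mean ± SD of 3 libraries. Herpud1 lies between 257 and 339 FPKM in wild type, 112 and 129 in the knockout and 59.2 and 91.1 with betaine, whereas Syvn1 and Xbp1 overlap in all groups.

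Promoter stretches that hold a known ER stress element are printed because members that carry the same element were not all called. RefSeq windows of GRCm38.p6, from 250 bases before to 50 after the gene's start, were matched for all 10 genes, 1 window each. Searched on both strands were ERSE, the ER stress response element (CCAAT and CCACG with 9 bases between them), ERSE-II (ATTGG and CCACG with 1 base between them) and UPRE (TGACG followed directly by TGG). The motifs share letters: CCACG is part of both ERSE forms, and its reverse complement is part of UPRE. ERSE was found in 4 of the 10 genes and in 0.119% of the 32851 windows in the table. ERSE-II was found in Herpud1 and in 0.0365% of windows, and UPRE in 0 of the 10 and in 0.676% of windows. Other ER genes, described below, held such elements too, counted among genes with a window. ERSE was in 4 of 17 other chaperones and folding enzymes and 1 of 17 other ERAD components. Any of the 3 elements was in 6 and 3 of these, beside 5 of the 10 genes. It was in 0 of 11 sensors and their factors and 2 of 25 entry and export genes. CCACG alone is common, in 9 of the 10 genes and in 32.8% of windows. Positions of matches are counted from the RefSeq start of each window, which for some genes is not the start of the GENCODE gene whose coordinates are given with each member; the Hspa5 match lies inside the GENCODE gene. The stretches read 5′ to 3′ on the gene's strand, with both ends of each match in capitals.
Herpud1, chr8:94386352-94386412, plus strand, ERSE-II: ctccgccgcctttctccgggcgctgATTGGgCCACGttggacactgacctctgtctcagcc
Dnajc3, chr14:118937806-118937866, plus strand, ERSE: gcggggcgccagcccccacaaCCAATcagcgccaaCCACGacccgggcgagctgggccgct
Syvn1, chr19:6046511-6046571, plus strand, ERSE: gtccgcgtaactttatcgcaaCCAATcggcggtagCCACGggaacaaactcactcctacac
Hspa5, chr2:34772025-34772043, plus strand, ERSE: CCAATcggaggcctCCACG
Hsp90b1, chr10:86705518-86705671, minus strand, 2 ERSE, the last one reversed: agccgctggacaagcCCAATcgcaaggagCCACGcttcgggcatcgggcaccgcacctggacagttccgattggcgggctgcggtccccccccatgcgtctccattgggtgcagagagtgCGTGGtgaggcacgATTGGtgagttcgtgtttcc
Relative to the RefSeq start, the Herpud1 match lay from -52 to -42, that of Syvn1 from -44 to -26, that of Hspa5 from -65 to -47, that of Dnajc3 from -105 to -87, and those of Hsp90b1 from -212 to -194 and -107 to -89. Herpud1 and Dnajc3 were called lower in the knockout, while Syvn1, Hspa5 and Hsp90b1 were not called. Sel1l and Edem1, also called lower, held none of the 3 elements in these windows. A match is a description of the letters only.

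Within the degradation machinery of the ER membrane, Herpud1 fell the most. Herpud1 is a ubiquitin-like-domain protein of the ER membrane that joins the Syvn1 ligase complex (ENSMUSG00000031770; GRCm38 chr8:94386438-94395377, plus strand), and its promoter holds the ERSE-II match printed above. Its level in wild type was 314, 257 and 339 FPKM (in this and later lists, replicates 1, 2 and 3). The knockout libraries held 112, 116 and 129 FPKM, and those with betaine 82.2, 59.2 and 91.1. All 3 groups were separate: every wild type library was above every knockout library, and every knockout library above every betaine library. The knockout mean was 0.392 times that of wild type, a log2 fold change of -1.34 ± 0.18 (adjusted p = 0.00556), and 1.12% of all tested genes had a lower value. The antisense gene Gm15890 overlaps it, at no more than 1.65 FPKM. The change was called in all 22 alternative settings, from -1.76 to -1.25, the lowest of these under TPM scaling, where the median of all genes also moved, to -0.36.

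Sel1l, the adaptor that holds the ligase Syvn1 in its complex and receives substrates from the lumen (ENSMUSG00000020964; chr12:91806043-91849157, minus strand), measured 24.3, 23.9 and 20.4 FPKM in wild type. The knockout libraries held 15.4, 12.7 and 11.7 FPKM, and those with betaine 14.6, 17.5 and 18.1. The knockout was below wild type without overlap, and the betaine libraries lay between the knockout and wild type or within the knockout range. The change in the knockout was -0.77 ± 0.15 (adjusted p = 0.00878), called in all 22 alternatives.

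Syvn1, the E3 ubiquitin ligase Hrd1 of the same complex (ENSMUSG00000024807; chr19:6046576-6053712, plus strand), measured 25.6, 25.3 and 19.1 FPKM in wild type, 30.2, 24.5 and 19.1 in the knockout, and 24.3, 20.8 and 31.3 with betaine. The 3 groups overlapped, and wild type replicate 3 and knockout replicate 3 were the lowest libraries. The log2 fold change in the knockout was 0.063 ± 0.21 (adjusted p = 0.842), with a 95% interval from -0.41 to 0.53, and its sign turned without wild type replicate 3 (-0.071). The opposite strand carries Mrpl49, at 10.1 to 21.6 FPKM, and since the strand of counting is not stated, reads of both cannot be told apart where they overlap.

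The ratio of Sel1l to Syvn1 within a library does not depend on how libraries were scaled. It was 0.950, 0.945 and 1.06 in wild type, 0.510, 0.517 and 0.610 in the knockout, and 0.600, 0.843 and 0.578 with betaine. Wild type stood above both other groups, which overlapped. This ratio was chosen after the FPKM had been seen and is given with no test.

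Edem1, a mannosidase-like protein that passes misfolded glycoproteins to degradation (ENSMUSG00000030104; chr6:108828641-108859356, plus strand), measured 37.0, 31.6 and 45.8 FPKM in wild type and 23.6, 21.0 and 21.7 in the knockout. With betaine it measured 24.1, 36.5 and 30.7 FPKM. The knockout lay below both other groups without overlap, and was the tightest of the 3. The change in the knockout was -0.76 ± 0.18 (adjusted p = 0.0170). The call was lost without knockout replicate 2 (-0.72, adjusted p = 0.0676) or replicate 3 (-0.75, adjusted p = 0.0525), and without wild type replicate 3 it stood at -0.62 (adjusted p = 0.0362).

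The lumenal chaperones Hspa5 and Hsp90b1 did not pass the test in the knockout. Hspa5, the Hsp70 chaperone BiP that also binds the stress sensors (ENSMUSG00000026864; chr2:34771970-34777547, plus strand), measured 288, 286 and 270 FPKM in wild type. The knockout libraries held 266, 206 and 172 FPKM, all below wild type but widely spread, and those with betaine 201, 205 and 362. The knockout change was -0.41 ± 0.24 (adjusted p = 0.229), with a 95% interval from -0.96 to 0.13. Under TPM scaling it was -0.83 (adjusted p = 0.0179) and under quantile normalization -0.72 (adjusted p = 0.0439). In those fits 3674 and 1628 of the 11852 tested genes were called lower, and the medians of all genes were -0.36 and -0.012.

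Hsp90b1, the Hsp90 chaperone Grp94 (ENSMUSG00000020048; chr10:86690209-86705509, minus strand), measured 119, 133 and 183 FPKM in wild type, 136, 126 and 114 in the knockout, and 115, 123 and 181 with betaine. Wild type replicate 3 and betaine replicate 3 were the highest, and the 3 groups overlapped. The knockout change was -0.19 ± 0.21 (adjusted p = 0.529, 95% interval -0.67 to 0.29), and -0.011 (adjusted p = 0.973) without wild type replicate 3. The transcript Gm15344, at 0.703 to 6.86 FPKM, overlaps it on the same strand.

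Of the 3 cochaperones of Hspa5, Dnajc3 was called lower, and Dnajb9 and Sdf2l1 were not called. Dnajc3, the J-domain protein p58IPK, also known as a brake on the kinase Perk (ENSMUSG00000022136; chr14:118937976-118981697, plus strand), measured 66.5, 72.1 and 80.9 FPKM in wild type. It fell to 43.8, 34.4 and 34.7 in the knockout and stood at 35.9, 42.0 and 47.8 with betaine. Every wild type library was above every library of the other groups, which overlapped. The knockout change was -0.95 ± 0.16 (adjusted p = 0.00647), called in all 22 alternatives, and 3.57% of tested genes had a lower value.

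Dnajb9, the J-domain protein ERdj4 that brings Hspa5 to the sensor Ire1 (ENSMUSG00000014905; chr12:44205559-44210326, minus strand), measured 47.0, 29.9 and 24.7 FPKM in wild type and 22.9, 15.95 and 13.7 in the knockout. With betaine it measured 18.7, 32.9 and 33.5 FPKM. Knockout and wild type did not overlap, but wild type alone spanned 24.7 to 47.0. The change of -0.91 ± 0.30 just missed the threshold (adjusted p = 0.0541), and it passed in 10 of 22 alternatives, among them without wild type replicate 3 (-1.11, adjusted p = 0.0418), without knockout replicate 1 (-1.12, adjusted p = 0.0498) and without betaine replicate 1 (-0.91, adjusted p = 0.0343). Among those where it missed, it was smallest without wild type replicate 1 (-0.65, adjusted p = 0.156). Others were without knockout replicate 2 (-0.86, adjusted p = 0.145) or 3 (-0.76, adjusted p = 0.156).

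Sdf2l1, a lumenal protein that works with Hspa5 and its J-domain partners (ENSMUSG00000022769; chr16:17130138-17132383, minus strand), measured 46.8, 41.7 and 41.8 FPKM in wild type. The knockout libraries held 65.4, 57.8 and 49.8 FPKM, all above wild type, and those with betaine 46.6, 38.2 and 89.7. The change was 0.40 ± 0.27 (adjusted p = 0.300), and its sign turned under TPM scaling (-0.018) and with the exon length trend removed (-0.044). Relative to Hspa5, the Sdf2l1 level was 0.163, 0.146 and 0.155 in wild type, 0.246, 0.281 and 0.290 in the knockout, and 0.232, 0.187 and 0.248 with betaine, a ratio chosen after the values had been seen. The exons of Sdf2l1 and Hspa5 span 1108 and 4229 bases. Tested genes of like length had median knockout changes of 0.54 and -0.026. With the length trend removed, Sdf2l1 stood at -0.044 and Hspa5 at -0.38.

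Xbp1, the transcription factor whose messenger RNA is spliced by Ire1 (ENSMUSG00000020484; chr11:5520659-5525893, plus strand), measured 59.2, 77.3 and 39.7 FPKM in wild type. The knockout libraries held 82.8, 72.4 and 49.9 FPKM, and those with betaine 67.9, 62.1 and 92.0. The groups overlapped, and wild type replicate 3 was the lowest of all libraries. The change in the knockout was 0.24 ± 0.27 (adjusted p = 0.541), with a 95% interval from -0.38 to 0.86, and -0.016 without wild type replicate 3. A value per gene does not separate the spliced from the unspliced form.

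**Figure D2:**
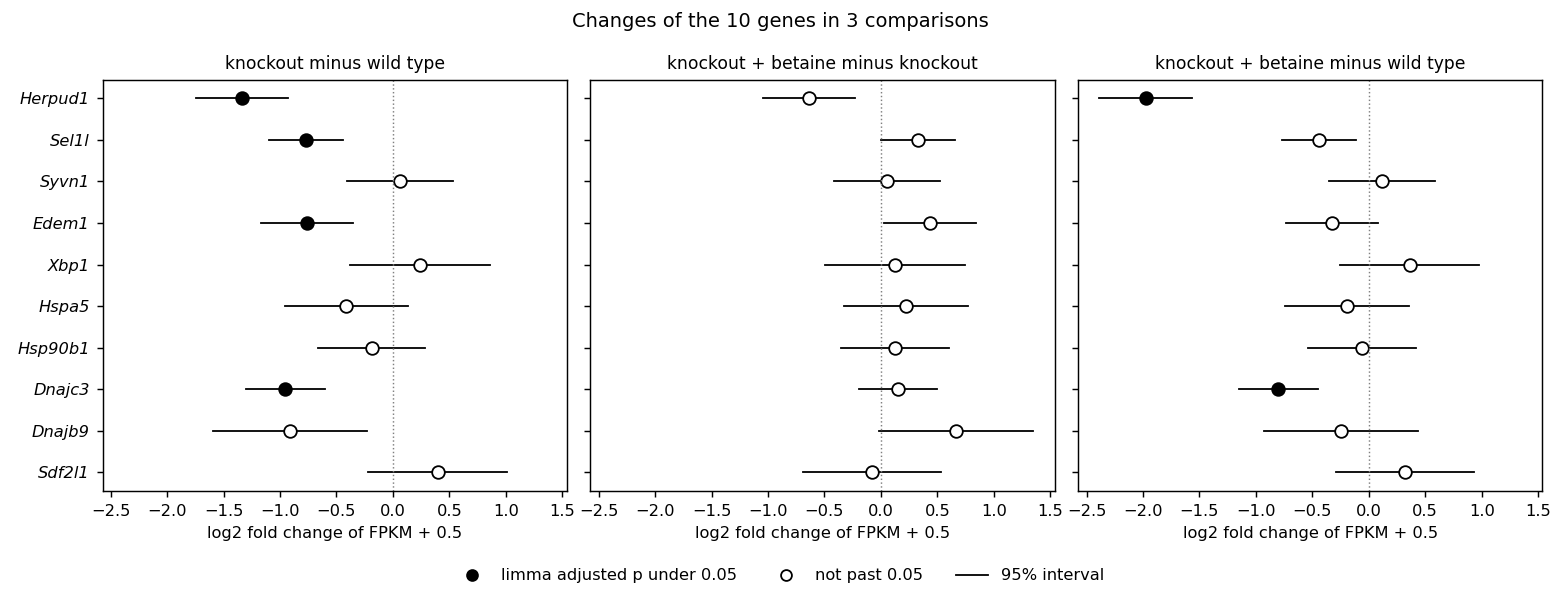
Log2 fold change of FPKM + 0.5 (horizontal axis) of each gene in the 3 comparisons; lines are 95% intervals, and filled points have an adjusted p under 0.05. The filled points are Herpud1, Sel1l, Edem1 and Dnajc3 in the first panel and Herpud1 and Dnajc3 in the last, all to the left of 0.

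Comparing betaine-supplemented with plain knockout asks what the supplement does on the knockout background. In limma none of the 10 genes passed, and in voom on the recovered reads none did either; 3 had an unadjusted p under 0.05, as did 22.5% of all tested genes. Over all tested genes, 0.0169% were called higher and 0.0253% lower, which is 2 and 3 genes. Those counts were 131 and 142 without wild type replicate 3 and 478 and 400 without betaine replicate 1, and in both fits 0 of the 10 genes were called. Herpud1 was lower again with betaine, at 0.651 times the knockout mean (-0.64 ± 0.18, adjusted p = 0.113, unadjusted p = 0.00628, 95% interval -1.05 to -0.23), with no overlap in FPKM (14.7% of tested genes were lower without overlap). Edem1 was higher with betaine and did not overlap (0.44 ± 0.18, adjusted p = 0.198, 95% interval 0.029 to 0.84; 15.6% of tested genes were higher without overlap). Sel1l was higher by 0.33 ± 0.15 (adjusted p = 0.216, unadjusted p = 0.0475), and passed only under TPM scaling (0.70, adjusted p = 0.0316), where the median of all genes was 0.33. Dnajb9 had the highest value, 0.67 ± 0.30 (adjusted p = 0.232), with betaine replicate 1 inside the knockout range. The other 6 lay between -0.078 (Sdf2l1) and 0.22 (Hspa5). The 95% intervals of these 6 reach from -0.69 for Sdf2l1 to 0.77 for Hspa5, so a missed threshold does not show equal levels.

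Against wild type, the betaine group had 2 genes called lower and none higher, where 5.78% of tested genes were lower and 5.87% higher. This comparison shares its libraries with both others. Herpud1 stood at 0.255 times the wild type mean (-1.98 ± 0.18, adjusted p = 0.00204), and 0.219% of tested genes had a lower value. Dnajc3 stood at 0.573 times (-0.80 ± 0.16, adjusted p = 0.0161), and missed the threshold where only these 2 groups were fitted (adjusted p = 0.0516). Sel1l was also below wild type without overlap (-0.44 ± 0.15, adjusted p = 0.0773), so that 3 members did not overlap on the lower side (16.2% of tested genes) and 0 on the higher side (16.1%). Edem1 was at -0.32 ± 0.18 (adjusted p = 0.259) and Dnajb9 at -0.25 ± 0.30 (adjusted p = 0.619). Both had groups that overlapped wild type.

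The order of the levels changed with these shifts. In wild type, Herpud1 (304 ± 41.8 FPKM, mean ± SD, n = 3) and Hspa5 (281 ± 9.998) led and overlapped, followed by Hsp90b1 (145 ± 33.4), Dnajc3 (73.2 ± 7.26) and Xbp1 (58.7 ± 18.8). In the knockout, Hspa5 (214 ± 47.5) stood alone above Hsp90b1 (125 ± 11.0) and Herpud1 (119 ± 8.51), which overlapped. With betaine, Herpud1 (77.5 ± 16.4) overlapped Xbp1 (74.0 ± 15.8). The ratio of Herpud1 to Hspa5 within each library was 1.09, 0.901 and 1.26 in wild type, 0.422, 0.566 and 0.749 in the knockout, and 0.410, 0.289 and 0.251 with betaine. The ratios of the 3 groups did not overlap, and they too were chosen after the values had been seen and carry no test. The lowest levels were those of Dnajb9, Edem1, Syvn1 and Sel1l, with Sel1l the lowest in each group (22.9 ± 2.18, 13.2 ± 1.91 and 16.7 ± 1.88 FPKM); its wild type libraries overlapped those of Syvn1 (23.3 ± 3.64).

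Spread within groups was uneven among the members. The coefficient of variation in wild type ran from 3.56% for Hspa5 to 34.4% for Dnajb9. In the betaine group Sdf2l1 reached 47.5% and Hspa5 36.1%, through replicate 3. That library was the highest of all 9 for Hspa5, Xbp1, Syvn1 and Sdf2l1, and the second highest for Hsp90b1. Across the 9 libraries, and as a description only, Pearson correlations of log2(FPKM + 0.5) were highest for Sel1l with Dnajc3 (0.899), Syvn1 with Xbp1 (0.889) and Sel1l with Dnajb9 (0.879). The lowest was that of Herpud1 with Xbp1 (-0.45). These values mix differences between groups with those within groups.

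Herpud1's pattern was set beside 10163 tested protein-coding genes, predicted gene models left out. The 4 with the highest Pearson correlation to it over the 9 libraries were Itih2 (0.983), Casc3 (0.975), Rprd2 (0.974) and P4ha1 (0.966). Itih2, which encodes a heavy chain of the plasma inter-alpha-trypsin inhibitor, measured 352, 356 and 407 FPKM in wild type, 246, 252 and 245 in the knockout and 234, 198 and 229 with betaine. Its log2 fold change in the knockout was -0.58, against -1.34 for Herpud1. P4ha1, a collagen prolyl hydroxylase subunit of the ER lumen, had mean levels of 4.70, 2.96 and 2.09 FPKM in the same order of groups.

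Other genes of the secretory pathway, from 4 lists, moved in both directions. They are read against the 12.7% of tested genes called lower and 12.8% called higher in the knockout. Among 26 other ERAD components, 7 fell and 3 rose, with a median of -0.17. Herpud2, the paralog of Herpud1, fell from 7.57 ± 0.492 to 4.09 ± 0.879 FPKM (-0.83 ± 0.15, adjusted p = 0.00773). March6, an ER membrane ubiquitin ligase separate from Syvn1, fell by 0.67 on the log2 scale (adjusted p = 0.00862). Nploc4, a cofactor of the ATPase Vcp that extracts substrates, fell by 0.92 (adjusted p = 0.0149). Selenok, a small selenoprotein that binds the ERAD machinery, rose from 33.2 ± 2.20 to 68.1 ± 7.12 FPKM (1.02 ± 0.16, adjusted p = 0.00631).

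Of 15 sensors, their proteases and transcription factors, 4 fell and none rose, with a median of -0.20. Atf6, the sensor cleaved in the Golgi, fell from 11.3 ± 0.714 to 4.96 ± 0.893 FPKM (-1.12 ± 0.18, adjusted p = 0.00647), in all 22 alternatives. Eif2ak3, which encodes Perk, fell by 0.72 (adjusted p = 0.0264), and Ern1, which encodes Ire1, by 0.75 (adjusted p = 0.0415). Rtcb, the ligase that rejoins cut Xbp1 messenger RNA, fell by 0.35 (adjusted p = 0.0446). The calls of Eif2ak3, Ern1 and Rtcb held in 17, 11 and 10 of 22 alternatives. Without wild type replicate 1, knockout replicate 2 or knockout replicate 3, 1 gene of this list was called lower. In those fits 859, 495 and 855 of all tested genes were called lower, against 1510 in the main fit. Without wild type replicate 3, 3 were called lower, where 1383 of all tested genes were.

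Of 23 other chaperones and folding enzymes, 5 rose and 2 fell, with a median of 0.28. Fkbp11, a prolyl isomerase of secretory cells, rose from 1.92 ± 0.713 to 6.91 ± 1.87 FPKM (1.62 ± 0.27, adjusted p = 0.00673). The prolyl isomerases Fkbp2 (1.11 ± 0.24, adjusted p = 0.0126) and Ppib (0.77 ± 0.17, adjusted p = 0.0130) and the thiol protein Erp44 (0.51 ± 0.13, adjusted p = 0.0210) rose as well, Erp44 in 17 of 22 alternatives and not under TPM scaling. Of 29 genes of ER entry and export tested, from 31 listed, 9 rose and 3 fell, with a median of 0.20. Sec61b (1.16 ± 0.18, adjusted p = 0.00614) and Sec61g (1.14 ± 0.23, adjusted p = 0.0105), the small subunits of the translocation channel, rose, and so did Ssr4 of the translocon (0.92 ± 0.21, adjusted p = 0.0151) and Ddost of the oligosaccharyl transferase (0.64 ± 0.13, adjusted p = 0.0117).

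The split of these calls depended on scaling and on single libraries. Under TPM scaling the calls were 1 higher and 16 lower for ERAD components, 0 and 8 for the sensors, 3 and 6 for the folding enzymes, and 3 and 5 for entry and export, where 588 of all 11852 tested genes were higher and 3674 lower. The medians of the last 2 lists were then -0.14 and -0.22, above the -0.36 of all genes. Under quantile normalization they were -0.026 and -0.028, beside -0.012 for all genes. Without knockout replicate 2 the counts of rises fell to 1 for the folding enzymes and 2 for entry and export, and 2 ERAD components fell, where 401 of all tested genes were called higher and 495 lower. Without wild type replicate 3 the calls were 1 higher and 6 lower for ERAD components, and 6 higher and 1 lower for entry and export. For the folding enzymes they were 5 and 1, where 1184 of all tested genes were higher and 1383 lower. Leaving out any knockout library left 1 ERAD component called higher, where 401 to 921 of all tested genes were. No folding enzyme was called lower without knockout replicate 2 or 3. No entry or export gene was called lower without wild type replicate 1 or 2 or knockout replicate 2 or 3. In those fits 495 to 1269 of all tested genes were called lower.

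**Figure D3:**
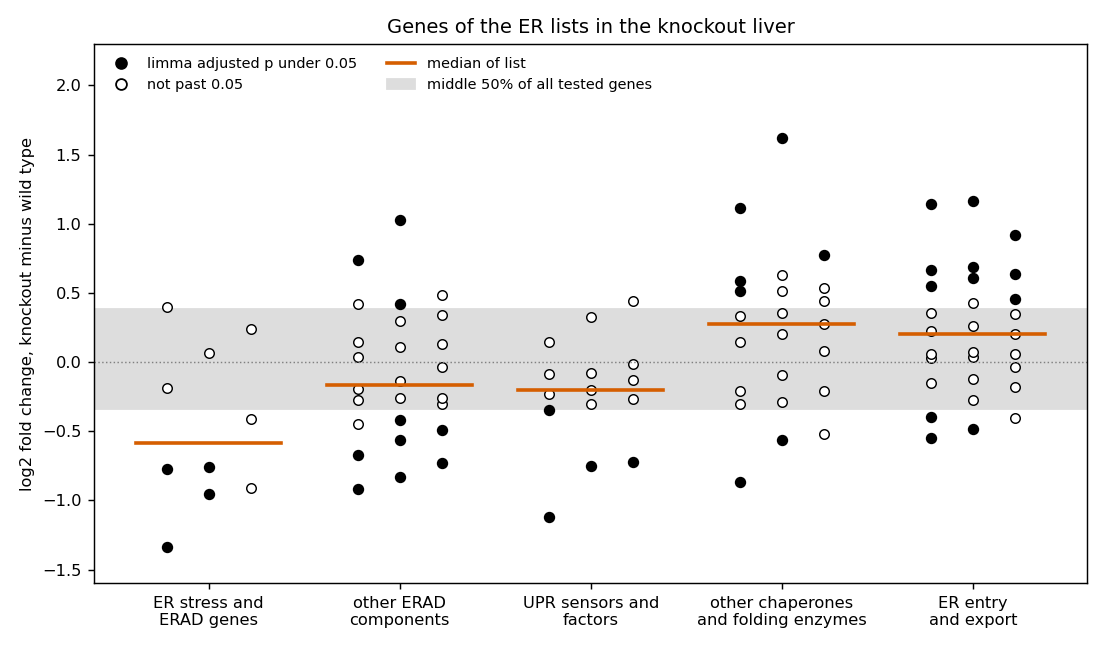
Log2 fold change, knockout minus wild type (vertical axis), of every tested gene in 5 lists; filled points passed an adjusted p of 0.05, orange lines are medians and the grey band is the middle 50% of all tested genes. The median of the 10 genes (-0.59) lies below the grey band, and those of the other 4 lists lie within it.

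With betaine against plain knockout, 0 genes of the 4 lists passed in limma or in voom, and 3 of the folding enzymes, 7 of the ERAD components, 3 of the sensors and 4 of the entry and export genes had an unadjusted p under 0.05, beside 22.5% of all tested genes. Without betaine replicate 1, 1 ERAD component was higher and 3 were lower, 1 folding enzyme was lower and 1 entry gene was higher. Over all tested genes, 478 were higher and 400 lower in that fit. Without wild type replicate 3, 1 ERAD component was lower, where 142 of all tested genes were. Under TPM scaling 2 folding enzymes, 9 ERAD components, 4 sensors and 4 entry and export genes were called higher, where 1681 of all genes were. In the main fit the lowest adjusted p was that of Derl3, a Derlin of the ERAD channel (-1.26 ± 0.24, adjusted p = 0.0774). Its level was 2.83 ± 0.269 FPKM in the knockout and 0.944 ± 0.480 with betaine. Derl3 was called lower in 2 of 22 alternatives, without wild type replicate 3 and without betaine replicate 1. Eif2ak3 had 1.93 ± 0.180 FPKM in the knockout and 3.61 ± 0.502 with betaine (0.75 ± 0.19, adjusted p = 0.0963), beside 3.60 ± 1.16 in wild type. Selenok had 42.9 ± 8.24 FPKM with betaine (-0.67 ± 0.16, adjusted p = 0.0909). Sec61a1, the pore subunit, had 13.8 ± 2.07 FPKM in the knockout and 20.9 ± 3.77 with betaine (0.58 ± 0.16, adjusted p = 0.111).

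Exon length moved with the changes in the knockout. The median change of tested genes within 0.25 log2 units of a member's exon length was 0.54 at the length of Sdf2l1 (1108 bases), 0.22 at that of Herpud1 (2333 bases), 0.18 at that of Dnajb9 (2549 bases), -0.17 at that of Edem1 (6453 bases) and -0.28 at that of Sel1l (8555 bases). With the length trend removed, Herpud1 stood at -1.55, Dnajb9 at -1.09, Dnajc3 at -0.85, Edem1 at -0.58 and Sel1l at -0.51, and these 5 were called lower (adjusted p from 0.00659 to 0.0383). Edem1 lost its call where wild type replicate 3 was also left out (-0.44, adjusted p = 0.0756). The genes that rose in the lists include short ones, such as Sec61b with 1271 bases of exon and Selenok with 1891, and Atf6 and March6, with 9231 and 9174, were among those that fell. Removing that trend gave 5 calls higher and 3 lower for the folding enzymes, and 10 and 2 for entry and export. Beside them were 4 and 7 for ERAD components and 0 and 2 for the sensors. In the main fit the counts were 5 and 2, 9 and 3, 3 and 7, and 0 and 4 in that order. Of all genes, 1067 were higher and 1133 lower with the trend removed.

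**Figure D4:**
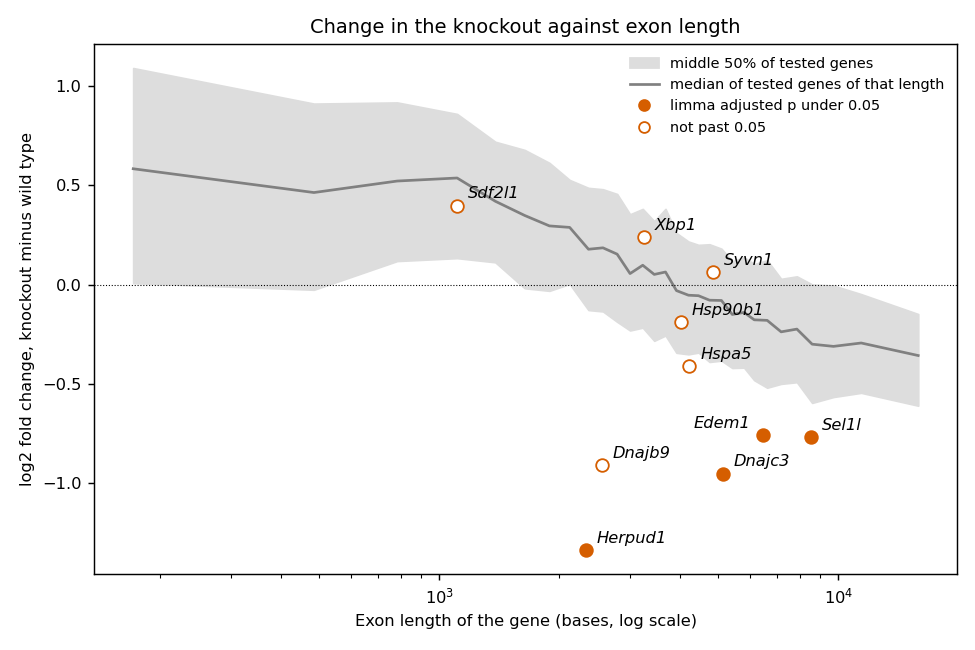
Log2 fold change, knockout minus wild type (vertical axis), against exon length in bases (horizontal, log scale); the grey line and band are the median and middle 50% of tested genes by length, and points are the 10 genes, filled where called. Sdf2l1 (0.40 at 1108 bases) lies within the band, and Herpud1 and Dnajb9 lie below it at lengths where the median gene is above 0.

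Markers of liver cell types were read in the same libraries. All 8 hepatocyte markers were tested; they summed to 48420 to 65640 FPKM in wild type, 43380 to 55830 in the knockout and 34010 to 48840 with betaine, and in the knockout 3 were called higher and 1 lower. The 5 sinusoidal endothelial markers summed to 24.6 to 42.2 FPKM in wild type, 19.0 to 24.5 in the knockout and 15.3 to 24.3 with betaine, and 1 was called lower in the knockout. The sums of wild type and knockout did not overlap for these markers or for the 5 Kupffer cell and macrophage markers. The latter summed to 91.1 to 138.9, 70.6 to 85.3 and 52.9 to 140.6 FPKM, and 0 were called. Over all tested genes, 12.8% were called higher and 12.7% lower in the knockout. Single genes did not overlap in 23.6% of cases on the higher side and 23.2% on the lower. Between betaine and wild type, 1 hepatocyte and 1 endothelial marker were called lower, where 5.78% of tested genes were. Of the other lists, 4 of 5 cholangiocyte, 5 of 5 stellate, 1 of 4 T and NK, 3 of 6 B and plasma, 2 of 3 neutrophil, 3 of 3 erythroid and 1 of 6 acinar markers were tested, and 0 of those were called in any comparison; the acinar genes Cpa1 and Pnlip were at 0 in every library. The part of these markers in the changes of the 10 genes was not tested, and in whole liver fewer cells of a type and less RNA per cell cannot be told apart.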

How the data were processed

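The deposited table holds FPKM per gene for 9 liver libraries; per the submitters' processing notes the authors used DESeq2 1.16.1, featureCounts 1.5.0-p3 and HISAT2 2.0.5 with mm10, in roles that are not stated. With exon lengths from GENCODE M21 (GRCm38), values worth at most 20 reads came within 0.05 of a whole read in 98.3% to 98.6% of cases. The recovered denominators follow median-of-ratios factors, so the deposited FPKM carry that scaling rather than the library's read total. At that depth 3 reads in 1 kb equal 0.162 to 0.222 FPKM, for counting error only.

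The 11852 genes that averaged 0.5 FPKM or more were tested on log2(FPKM + 0.5) in 1 model of all 9 libraries with limma 3.58.1 (R 4.3.3; lmFit, eBayes with trend and robust), with 3 contrasts, two-sided, Benjamini-Hochberg within each, and a threshold of 0.05. The fit was tested on simulated data. Tables and figures used Python 3.11.15, pandas 2.3.3 and matplotlib 3.10.9.

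The members and lists were chosen with earlier results of these data known. Named were Cth, the members, the sex-linked check genes, the 4 genes most like Herpud1 and, per list and for the knockout and betaine-to-knockout comparisons, up to 4 called genes of lowest p (where fewer than 2 were called, the 2 of lowest p as values). Motifs were chosen after the members' values had been seen.

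Alternatives were other pseudocounts, filters, scalings (TPM, own read totals, quantile), voom on recovered reads, a non-robust eBayes, the 2 groups alone, removal of the exon length trend, the replicate number as a block, each library left out, and, added after seeing the data, the length trend removed without wild type replicate 3.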

Additional observations from a re-analysis of the deposited data

How the results depend on the processing

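Across 22 alternatives per gene and comparison, 603 values for the 10 genes kept their direction and side of the threshold. In the knockout, Herpud1, Sel1l and Dnajc3 were called in all 22, Edem1 in 19, Dnajb9 in 10 and Hspa5 in 2. With betaine against the knockout, 1 gene (Sel1l) was called higher under TPM scaling, as were 1681 of all tested genes. Against wild type, 1 gene (Herpud1) was called lower in the betaine group where only the 2 groups were fitted. In that fit 147 of all tested genes were called lower. Under quantile normalization 3 members were lower (Sel1l too, -0.50, adjusted p = 0.0397), as were 738 of all tested genes.

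The sign turned only for genes that were not called. For knockout minus wild type, TPM scaling, which moved the median of all genes to -0.36, gave Syvn1 -0.35, Xbp1 -0.18 and Sdf2l1 -0.018, none of them below that median; own read totals gave Syvn1 -0.062, and quantile normalization gave Syvn1 -0.038 and Xbp1 -0.033. Removing the length trend gave Sdf2l1 -0.044, and without wild type replicate 3 as well Sdf2l1 -0.0098, Xbp1 -0.061 and Hsp90b1 0.024. With 1 library left out, Syvn1 ranged from -0.093 to 0.23 and Xbp1 from -0.016 to 0.46.

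For betaine minus knockout, Sdf2l1 was 0.29 (TPM, where the median of all genes was 0.33), 0.11 (own totals), 0.061 (quantile), 0.16 (length trend removed) and 0.15 (also without wild type replicate 3), and Syvn1 was -0.0096 and -0.0093 in the last pair. With 1 library left out the ranges were -0.44 to 0.17 for Sdf2l1, -0.11 to 0.21 for Syvn1, -0.058 to 0.39 for Hspa5, -0.073 to 0.25 for Hsp90b1 and -0.085 to 0.28 for Xbp1. For betaine minus wild type, Hsp90b1 was 0.00018 (own totals) and 0.11 (length trend removed without wild type replicate 3). Its range with 1 library left out was -0.26 to 0.12, beside -0.44 to 0.023 for Dnajb9, -0.041 to 0.25 for Syvn1 and -0.040 to 0.57 for Sdf2l1. The cause was not tested.

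Correlations of the deviations from group means ran from -0.23 to 0.098 for same-numbered libraries. For libraries of different numbers they ran from -0.14 to 0.26. With 3 libraries per group, these values cannot settle whether the numbers pair the libraries. The replicate block left the counts of members called at 4, 0 and 2, with Herpud1 at -1.34 (adjusted p = 0.0163) in the knockout. It called 2210 genes in place of 3029 in the knockout, and 671 in place of 1381 between betaine and wild type.

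No member was near the floor of 3 reads, the lowest count being 519.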
